A study of Mus musculus with 4 samples.

Results

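The histone acetyltransferase genes Ep300, Crebbp, Kat2a, Kat2b, Kat5, Kat6a, Kat6b, Kat7, Kat8 and Hat1 were chosen by symbol. Of these 10 genes, 9 are among the 16861 genes listed in the RNA-seq libraries, and all 9 passed the filter on low values. Kat2b was not analysed here. The libraries came from germinal vesicle oocytes of 3-week-old female C57BL/6J mice, which are held in meiotic prophase. The study compared 2 nuclear configurations, the non-surrounded nucleolus (NSN) with open, dispersed DNA staining and the surrounded nucleolus (SN), in which compacted DNA encircles the nucleolus. Both classes were freed of cumulus cells, stained with Hoechst in medium with milrinone, which maintains the arrest, and sorted by their nuclear fluorescence. Each configuration had 2 Smart-seq2 libraries, each a pool of 15 oocytes, and no oocytes were treated or genetically altered.

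Histone acetyltransferases transfer the acetyl group of acetyl-CoA to lysines of histones, a mark that loosens the contact with DNA and is read by bromodomain proteins. EP300 and CREBBP are large paralogous co-activators. KAT2A (GCN5) and KAT2B (PCAF) are the alternative catalytic subunits of the SAGA and ATAC complexes. The MYST family comprises KAT5 (TIP60), KAT6A (MOZ), KAT6B (MORF), KAT7 (HBO1) and KAT8 (MOF), which act within multi-subunit complexes. HAT1 acetylates newly made histone H4 before it is placed on DNA. Histones of fully grown oocytes carry acetyl groups, and deacetylases remove most of them when meiosis resumes.

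The cDNA was primed from the poly(A) tail, so the annotated ends of the transcripts are shown for the long paralogous genes. Their values did not overlap between configurations and were higher in SN, as were those of Kat5, Kat7 and 44.8% of all tested genes. A link between these ends and the values was not tested. The sequences are from the canonical GENCODE transcripts on GRCm39, written 5′ to 3′ on the transcript strand, with the poly(A) signal AATAAA in capitals. The printed stretch of Ep300 lies at chr15:81537177-81537206 (plus strand) and that of Crebbp at chr16:3899198-3899227 (minus strand). The stretch of Kat6a lies at chr8:23433246-23433275 (plus strand) and that of Kat6b at chr14:21722515-21722544 (plus strand).
Ep300: catttgattaatAATAAAttgaattactgc
Crebbp: ttatAATAAAagctggtaaaactgcttgga
Kat6a: aaaaAATAAAttatgttgagccattttgga
Kat6b: tttaAATAAAgtgagtttggttttttcttt

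AATAAA or its variant ATTAAA occurred in the last 50 bases of the canonical transcript in 7 of the 9 genes, and in 75.8% of 9589 tested protein-coding genes. Kat8 and Hat1 had neither. The cytoplasmic polyadenylation element, which oocytes use to lengthen the poly(A) tail of stored mRNAs, was searched for as TTTTAT or TTTTAAT in the last 100 bases, on the transcript strand only. TTTTAAT can overlap AATAAA by its last bases. Of the 9 genes, 2 held an element, against 17.9% of the 9589 genes. In Kat6b it started 98 bases before the end, and in Kat5 97 bases before the end. The printed stretches that hold it lie at chr14:21722447-21722476 (plus strand) for Kat6b and at chr19:5653108-5653137 (minus strand) for Kat5. They are shown with the element in capitals.
Kat6b: gaTTTTAATgcttttccatgaaagttgact
Kat5: ttcTTTTATaaaggaggagctggagggtgg

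No acetyltransferase gene was called differentially expressed between SN and NSN oocytes. A call needed a Benjamini-Hochberg adjusted p under 0.05 in limma, over the 11672 genes whose FPKM averaged 0.5 or more, and a fold change of at least 1.2. FPKM are read pairs divided by gene length and by library total. Log2 fold changes were taken between values of log2(FPKM + 0.5), so those of low genes are understated. Of the 9 genes, 0 were called, against 7.93% of all tested genes (5.95% higher and 1.98% lower in SN). Of these calls 75.1% were higher in SN, and after median scaling of the libraries 30.4% of 257 calls were. At an unadjusted p under 0.05 in limma there was 1 of the 9 genes, Kat6b, beside 3695 of all 11672 tested genes. With limma's voom on read pairs recovered from the FPKM, 1 of the 9 was called, Kat6b, beside 2311 of all genes. Nothing in the labels says that the libraries came from separate animals, so the p-values measure the spread between these libraries only, which may be technical. Fewer oocytes with a transcript and less transcript per oocyte cannot be told apart in pools.

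On the deposited FPKM, 8 of the 9 genes had a log2 fold change above 0, beside 7782 of all 11672 tested genes. After median scaling of the libraries it was 5 of the 9, after quantile normalization 6, and after removal of the 100 most abundant genes from the totals 6. The median log2 fold change over the 9 genes was 0.26, beside 0.14 over all 11672 genes. Median scaling moved the median of all genes to 0.005 and that of the 9 genes to 0.11. In 6 of the 9 genes both SN libraries lay above both NSN libraries, which was also so in 44.8% of all tested genes. In none of the 9 did both lie below, as they did in 17.8% of all genes. The plot of log2 fold changes sets the deposited FPKM, median scaling and a correction for gene length side by side. After the correction for gene length, 5 of the 9 genes were above 0.

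**Figure D1:**
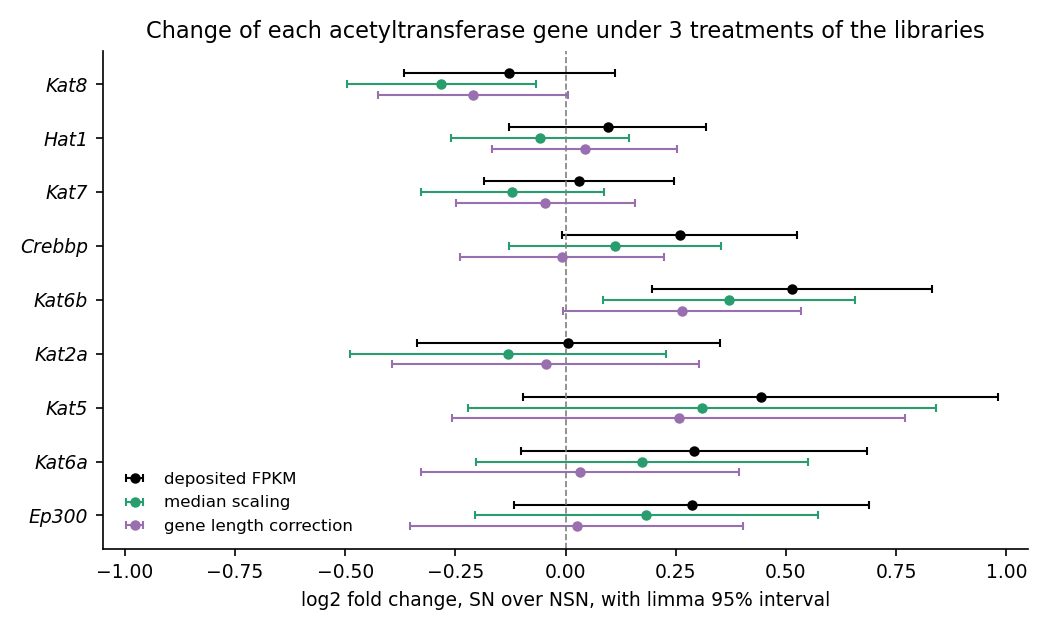
Log2 fold change of SN over NSN oocytes for each gene (x axis) with limma's 95% interval (bars), from 2 libraries per configuration, on the deposited FPKM, after median scaling and after gene length correction. On the deposited FPKM the points run from -0.13 for Kat8 to 0.51 for Kat6b, and the points for median scaling lie to the left of them.

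The libraries held 17069772 to 17998361 read pairs and listed the same genes. At these depths the 9 genes had from 33 to 2831 recovered read pairs per library, all above a floor of 3 read pairs, and such numbers speak for counting error only, because amplified read pairs are not independent molecules. All 14 oocyte marker genes were listed, and their FPKM summed to 30850 and 30680 in the NSN and 24030 and 22860 in the SN libraries, with 9 of 14 called lower in SN on the deposited FPKM. The highest was H1f8, the oocyte linker histone, at a mean FPKM of 8331. Of 18 granulosa and cumulus cell markers, 13 were listed, and their FPKM summed to 10.1 and 14.3 in the NSN and 14.8 and 14.0 in the SN libraries, so that the ranges overlapped. Cyp19a1, the aromatase of granulosa cells, was the highest at a mean FPKM of 7.62, and Amh and Foxl2 were not among the listed genes. The part of these markers in the results was not tested.

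Levels per length differed widely among the 9 genes. Kat8 and Hat1 were the most abundant, with mean FPKM over the 4 libraries of 86.0 and 78.9, at the 93.5th and 92.9th percentiles of the tested genes. Their ranges overlapped, from 81.0 to 97.6 for Kat8 and from 71.1 to 82.8 for Hat1. Kat7 followed at 20.6, and no library of it came near those of its neighbours. Crebbp (10.4) and Kat6b (7.54) overlapped in range, although on the deposited FPKM Crebbp was the higher in each library. Kat2a (3.68) and Kat5 (3.38) overlapped as well. Kat6a (1.59) and Ep300 (1.02) were the lowest and did not overlap, and Ep300 stood at the 16.6th percentile.

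**Figure D2:**
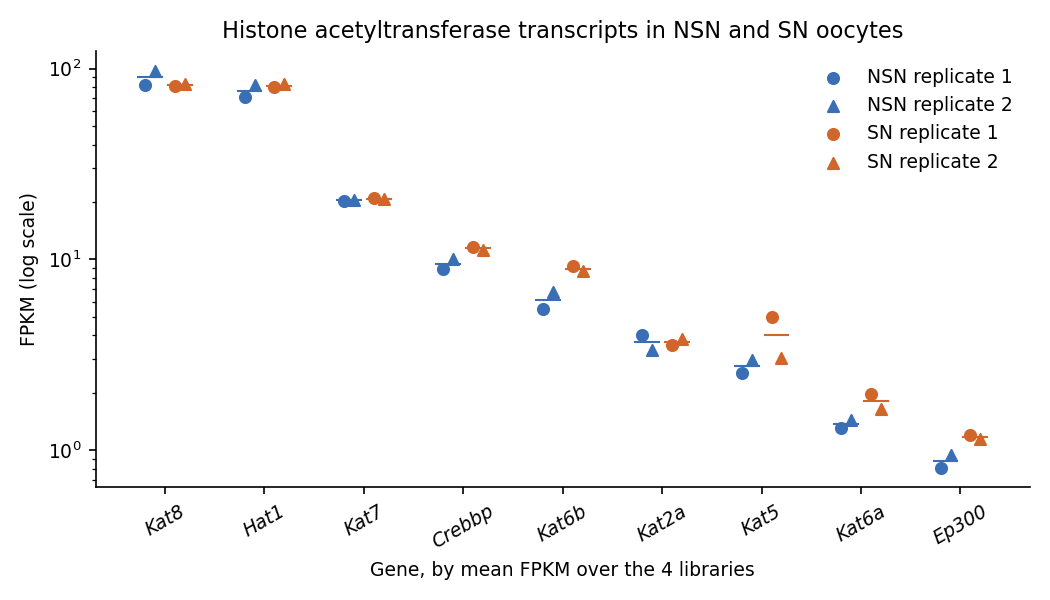
FPKM on a log axis of the 9 acetyltransferase genes, ordered by mean FPKM, with one point per library and a line at the mean of each configuration (n = 2). Kat8 and Hat1 lie between 71.1 and 97.6 in every library, and Ep300 between 0.811 and 1.2.

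The level of a gene rests on the length by which its read pairs were divided. This length was recovered from the FPKM, up to a whole multiple, because read pairs and length may share a factor in all 4 libraries. For Crebbp it equalled the 10820 bases of the canonical transcript, and for Kat2a it was 3046 against 3052, for Kat8 1579 against 1580 and for Kat7 3626 against 3560 bases. For Hat1 it was 1899 against 2788 bases. Kat5 was not settled, since the recovered 751 bases and their multiples of 1502, 2253 and 3004 bases all lie within its annotated exons, and its canonical transcript has 2158 bases. Divided by the canonical length, Kat5 had a mean of 1.18 at 751 bases and of 3.53 at 2253 bases, and its rank against Kat6a at 1.62 changed between them. Hat1 had a mean of 53.7 at 1899 bases and of 107.5 at the multiple of 3798 bases, beside 78.9 as deposited. Kat8 had a mean of 86.0 at 1579 bases and of 172 at the multiple of 3158 bases, which its annotated exons also allow. The order of Hat1 and Kat8 was therefore not settled either. For Kat6b the recovered length was 8436 against 7372 bases, and the multiple of 16872 bases also lies within its annotated exons. Its mean was 8.62 at 8436 bases and 17.25 at 16872 bases, beside 10.44 for Crebbp, so the order of these genes was not settled. The length is the same in each library, so fold changes on the deposited FPKM do not depend on it, apart from the pseudocount. The gene length correction used the recovered length and voom the recovered read pairs, so their results rest on the multiple where it was not settled.

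**Figure D3:**
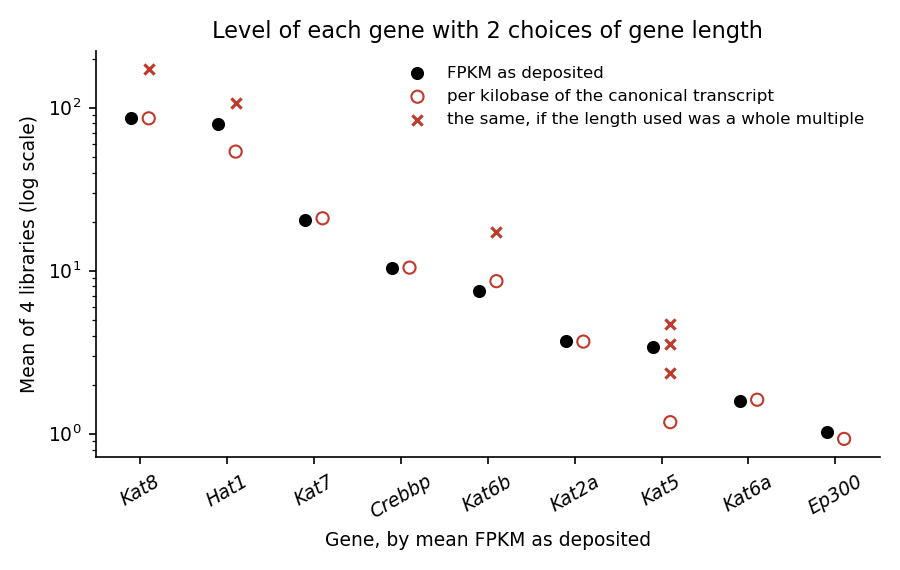
Mean over the 4 libraries of the FPKM as deposited (filled points) and of the read pairs per kilobase of the canonical transcript (open points), on a log axis, for the 9 genes. Crosses give the latter for each larger whole multiple of the recovered length that the annotated exons allow, which for Kat5 spread from 2.35 to 4.71 above its open point at 1.18, while Crebbp has none and stays at 10.4.

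Ep300 (ENSMUSG00000055024.14, chromosome 15 of GRCm39 from 81469540 to 81537206) and Crebbp (ENSMUSG00000022521.11, chromosome 16 from 3899192 to 4031861) encode the co-activators that bind many transcription factors. Ep300 had FPKM values of 0.811 and 0.940 in NSN and 1.2 and 1.15 in SN oocytes, from 135 to 198 read pairs per library. Both SN libraries lay above both NSN libraries, but the log2 fold change of 0.29 (standard error, SE, 0.17, limma 95% interval -0.12 to 0.69) did not pass (limma's adjusted p = 0.286). Crebbp had FPKM values of 8.91 and 10.02 in NSN and 11.6 and 11.2 in SN oocytes, again without overlap, from 1679 to 2178 read pairs. Its log2 fold change was 0.26 (SE 0.11, interval -0.0077 to 0.53, limma's adjusted p = 0.167). Crebbp exceeded Ep300 by 11.0 and 10.7 times in the NSN and by 9.70 and 9.73 times in the SN libraries. A single value cannot reach a two-sided exact permutation p below 0.333 with 2 libraries against 2, so this ratio was not tested.

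Kat6b (ENSMUSG00000021767.22, chromosome 14 from 21531502 to 21722546) and Kat6a (ENSMUSG00000031540.16, chromosome 8 from 23349545 to 23433275) encode the catalytic subunits that act on histone H3 together with BRPF proteins. Kat6b had the largest log2 fold change of the 9 genes and the smallest p. Its FPKM was 5.52 and 6.74 in NSN and 9.18 and 8.69 in SN oocytes, from 811 to 1322 read pairs or a whole multiple of these numbers. The SN libraries lay above the NSN libraries, and the NSN libraries differed more from each other than the SN libraries did. The log2 fold change was 0.51 (SE 0.13, interval 0.20 to 0.83), which missed the threshold over all genes (limma's adjusted p = 0.0614, unadjusted p = 0.00684). The outcome changed with the test. When the filter was raised to an average FPKM of 5, limma's adjusted p was 0.0283, with voom it was 0.00557, and without NSN replicate 2 it was 0.0275 at a log2 fold change of 0.65. Without NSN replicate 1 the log2 fold change was 0.38, with limma's adjusted p at 0.206. Over all alternatives the adjusted p of limma ran from 0.00557 to 0.262. After median scaling the log2 fold change was 0.37 (limma's adjusted p = 0.113), and after gene length correction 0.26 (limma's adjusted p = 0.194).

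Kat6a had FPKM values of 1.31 and 1.44 in NSN and 1.96 and 1.64 in SN oocytes. The groups did not overlap, and the log2 fold change of 0.29 (SE 0.16, interval -0.10 to 0.68) did not pass (limma's adjusted p = 0.267). Kat6b exceeded Kat6a by 4.21 and 4.67 times in the NSN and by 4.68 and 5.30 times in the SN libraries.

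The 4 genes with a recovered length of at least 8000 bases were Ep300, Crebbp, Kat6a and Kat6b, and their log2 fold changes lay between 0.26 and 0.51. This grouping was made after the values were seen. Over all 618 tested genes of that length the median log2 fold change was 0.26 and 83.8% were above 0, whereas over the 3933 genes of 2000 to 4000 bases it was 0.07 and 60.0%. The median did not rise steadily with length, since over the 1795 genes below 1000 bases it was 0.19 and 68.7% were above 0. When the trend with length was removed by loess, the values of the 4 genes became -0.0083 to 0.26, and that of Crebbp changed sign. The other 5 genes ranged from -0.13 to 0.44 before and from -0.21 to 0.26 after this correction, in which Kat5 entered with the recovered 751 bases.

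Kat5 (ENSMUSG00000024926.12, chromosome 19 from 5653038 to 5660271) encodes the acetyltransferase of the TIP60 complex, which acts in transcription and DNA repair. Its recovered read pairs were 33 and 40 in NSN and 64 and 41 in SN oocytes, or a whole multiple of these numbers. Its FPKM was 2.52 and 2.97 in NSN and 4.99 and 3.03 in SN oocytes. SN replicate 1 was high, and SN replicate 2 lay barely above NSN replicate 2. The log2 fold change of 0.44 had the widest interval of the 9 genes (SE 0.23, interval -0.10 to 0.98, limma's adjusted p = 0.226). It was 0.12 without SN replicate 1 (limma's adjusted p = 0.743) and 0.76 without SN replicate 2 (limma's adjusted p = 0.110). Of its annotated exonic bases, 24.2% lie also in exons of Rnaseh2c or Gm59325, and read pairs were counted without regard to strand, so its values are uncertain.

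Kat7 (ENSMUSG00000038909.18, chromosome 11 from 95165085 to 95201072) encodes the acetyltransferase that works with ING, JADE and BRPF proteins at genes and replication origins. Its FPKM hardly varied, at 20.2 and 20.5 in NSN and 21.0 and 20.7 in SN oocytes. The log2 fold change of 0.03 (SE 0.09, interval -0.18 to 0.24, limma's adjusted p = 0.840) became -0.12 after median scaling.

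Kat8 (ENSMUSG00000030801.12, chromosome 7 from 127511661 to 127525009) encodes the histone H4 acetyltransferase of the MSL and NSL complexes. Its FPKM was 82.4 and 97.6 in NSN and 81.0 and 83.1 in SN oocytes. The ranges overlapped, and NSN replicate 2 was the high library. On the deposited FPKM it was the only one of the 9 genes with a log2 fold change below 0, at -0.13 (SE 0.10, interval -0.37 to 0.11, limma's adjusted p = 0.411). After median scaling the value was -0.28 (interval -0.50 to -0.07, limma's adjusted p = 0.110).

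Kat2a (ENSMUSG00000020918.16, chromosome 11 from 100595572 to 100603310) encodes the acetyltransferase of SAGA and ATAC, which acts on histone H3 at promoters. Its FPKM was 4.00 and 3.35 in NSN and 3.54 and 3.83 in SN oocytes, with the SN libraries inside the range of the NSN libraries. The log2 fold change was 0.0064 (SE 0.14, interval -0.34 to 0.35, limma's adjusted p = 0.980), and it was -0.13 after median scaling. Exons of Gm72653 cover 9.98% of its exonic bases.

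Hat1 (ENSMUSG00000027018.13, chromosome 2 from 71218392 to 71271966) had FPKM values of 71.1 and 81.6 in NSN and 80.0 and 82.8 in SN oocytes. NSN replicate 1 was low, and the other NSN library lay between the SN libraries. The log2 fold change of 0.10 (SE 0.09, interval -0.13 to 0.32, limma's adjusted p = 0.513) became -0.06 after median scaling. On the deposited FPKM, Kat8 exceeded Hat1 by 1.16 and 1.196 times in the NSN and by 1.01 and 1.003 times in the SN libraries. Divided by the canonical lengths, this ratio averaged 1.60 over the libraries, so its size rests on the gene length used. Exons of Gm75204 cover 17.0% of the exonic bases of Hat1.

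The genes that work with these enzymes were taken as 10 lists of 110 genes, of which 91 were tested. Of these, 8 were called, all higher in SN oocytes, which is 8.79% of the 91 genes and near the 7.93% of all genes. The direction depended on the setting. With voom 23 were called higher and 4 lower in SN, and with voom and median scaling 10 higher and 11 lower. Of the 91 genes, 38 had an unadjusted p under 0.05 in limma, beside 3695 of all 11672 tested genes. The median log2 fold change of the 91 genes was 0.21. After median scaling 3 genes were called, namely Cited2, Msl1 and Atf2, and all 3 were among the 8. Without NSN replicate 2 there were 15 calls, and without NSN replicate 1, SN replicate 1 or SN replicate 2 there were 0 calls by limma.

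Among the partners of EP300 and CREBBP, 1 of 5 tested genes was called. Cited2, which binds the same domain of both co-activators as HIF1A, had FPKM values of 6.45 and 7.57 in NSN and 13.5 and 13.5 in SN oocytes, and its log2 fold change of 0.90 passed (SE 0.12, limma's adjusted p = 0.0364). Of 17 tested SAGA and ATAC subunits none was called, by limma, with a median log2 fold change of 0.06, and Sgf29, a reader of methylated histone H3 and the most abundant of them, averaged 384.7 FPKM in NSN and 382.0 in SN oocytes. Of the 17 TIP60 complex subunits 3 were called, all higher in SN, beside 5.95% of all tested genes called higher, and the median was 0.21. Ing3, which binds methylated histone H3, averaged 19.3 FPKM in NSN and 28.4 in SN oocytes (log2 fold change 0.55, limma's adjusted p = 0.0427). Mbtd1, a reader of methylated histone H4, had 11.0 and 16.3 (0.56, limma's adjusted p = 0.0457), and Vps72, a chaperone of the variant H2A.Z, had 74.4 and 100.2 (0.42, limma's adjusted p = 0.0452). None of these 3 passed after median scaling (limma's adjusted p = 0.0682 for Ing3, 0.0791 for Mbtd1 and 0.125 for Vps72).

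None of the 4 tested subunits of the KAT6A, KAT6B and KAT7 complexes was called by limma. Meaf6, shared with the TIP60 complex, was the most abundant, averaging 20.9 FPKM in NSN and 27.7 in SN oocytes (log2 fold change 0.40, limma's adjusted p = 0.0685). Of the 11 tested subunits of the MSL and NSL complexes of KAT8, 1 was called, 4 had a log2 fold change above 0, and the median was -0.13. The called gene, Msl1, the scaffold of the MSL complex, had FPKM values of 2.88 and 2.93 in NSN and 5.99 and 5.52 in SN oocytes, a log2 fold change of 0.88 (SE 0.13, limma's adjusted p = 0.0364). None of the 3 partners of HAT1 was called, and Rbbp7, its histone-binding subunit, averaged 2555 FPKM in NSN and 2719 in SN oocytes (log2 fold change 0.09, limma's adjusted p = 0.376).

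Of 7 other tested genes reported to encode histone acetyltransferases, 1 was called. Atf2, a transcription factor of the CREB family, had FPKM values of 12.5 and 14.9 in NSN and 25.0 and 23.4 in SN oocytes, a log2 fold change of 0.80 (SE 0.12, limma's adjusted p = 0.0364). Of 2 tested inhibitors of acetyltransferases, Anp32b was called, averaging 67.1 FPKM in NSN and 92.9 in SN oocytes (log2 fold change 0.46, limma's adjusted p = 0.0424). Anp32b did not pass after median scaling (limma's adjusted p = 0.110). Of 18 tested acetyl-lysine readers 1 was called, while 17 had a log2 fold change above 0 with a median of 0.34. Among all 11672 tested genes, 7782 were above 0, with a median of 0.14. The called reader was Brwd1, which binds acetylated histones and has a role in oocyte chromatin. It averaged 3.52 FPKM in NSN and 5.41 in SN oocytes (log2 fold change 0.56, limma's adjusted p = 0.0495). Brwd1 did not pass after median scaling (limma's adjusted p = 0.0878) or with a pseudocount of 0.1 (limma's adjusted p = 0.0513). None of the 10 tested genes of acetyl-CoA supply was called, and their median was 0.06. The most abundant was Pdhb, a subunit of pyruvate dehydrogenase, with a log2 fold change of 0.11 (limma's adjusted p = 0.369). The opposing histone deacetylases had 1 call among 11 tested genes and a median of -0.05. Hdac2 had FPKM values of 8.38 and 8.63 in NSN and 13.6 and 12.3 in SN oocytes, a log2 fold change of 0.58 (limma's adjusted p = 0.0393), which did not pass after median scaling (limma's adjusted p = 0.0667).

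**Figure D4:**
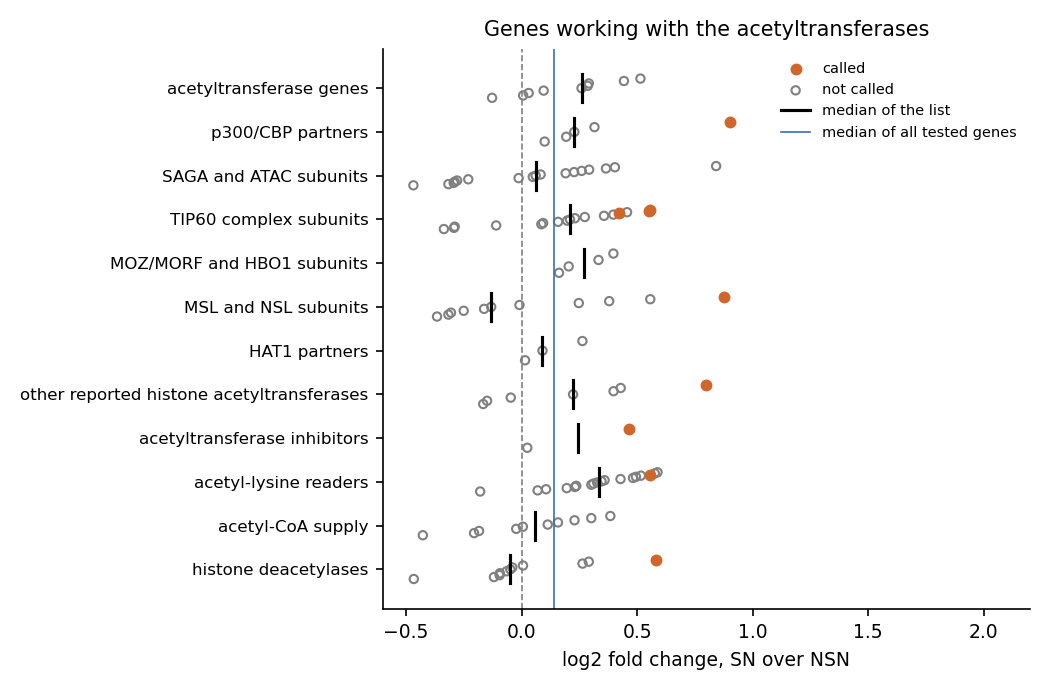
Log2 fold change of SN over NSN oocytes for the acetyltransferase genes and for the tested genes of each list, with called genes as filled and others as open points. Short black lines mark the median of a row, the blue line the median of all tested genes (0.14) and the dashed line 0. No acetyltransferase gene is filled, and all called genes lie to the right of 0.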

How the data were processed

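The authors trimmed the reads with Trim Galore (version 0.6.10 in the submitters' processing notes), aligned them by HISAT2 to GRCm39, used featureCounts for read pairs on GENCODE exons without regard to strand, and deposited FPKM made with their own script, without scaling between libraries. The labels speak of 3 samples per group, of which 2 per group were analysed here. DESeq2, the test of the authors, was not run, either on the FPKM or on the read pairs recovered from them. Instead, limma 3.58.1 in R 4.3.3 was applied to log2(FPKM + 0.5) of the 11672 genes whose FPKM averaged 0.5 or more. It used lmFit, then eBayes with a trend, two-sided, with Benjamini-Hochberg adjustment over these genes. The main fit added no scaling between libraries, so its calls need not match those of the authors. Calls used the adjusted p under 0.05 and the fold change of at least 1.2 of the authors.

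Library totals were recovered from 5 mitochondrial tRNA genes of annotated length, then the length and whole read pairs (within 0.001) of 16834 genes (99.84%). A recovered length can be a whole fraction of the true one. Positions, transcripts and 3′ ends are from a later GENCODE release on the same build. The procedure was also run on simulated read pairs with known fold changes. These had no global shift, length trend or outlying library, so the run cannot speak for calls that depend on such features. Tables were made with Python 3.11.15, numpy 2.4.6 and pandas 2.3.3, and plots with matplotlib 3.10.9.

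The acetyltransferase genes and all lists were chosen with earlier results of these data known. Named besides them were the called genes of each list (at most 4 per direction), or the most abundant gene where none was called, and the most abundant gene of each marker list. Alternatives were pseudocounts of 0.1 and 1, other filters, other scalings of the libraries (median, quantile, totals without the 100 most abundant genes), a fit without the variance trend, a replicate block, gene length correction by loess (span 0.3), voom, other thresholds and each library left out in turn.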

Additional observations from a re-analysis of the deposited data

How the results depend on the processing

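The number of calls depended on the settings, and the causes were not tested. Of all genes 926 were called. There were 1496 with a mean FPKM of 5 as the filter, 257 after median scaling, 230 after quantile normalization, 248 without the 100 most abundant genes in the totals, 139 after gene length correction, 2311 with voom, 1721 with voom and median scaling, 2370 at an adjusted p under 0.1 and 76 at a fold change of 2. For the genes working with the acetyltransferases, 8 in the fit reported, these counts were 13, 3, 3, 3, 2, 27, 21, 21 and 0. Lower in SN were 1 with the filter of 5, 4 with voom, 11 with voom and median scaling and 2 at an adjusted p under 0.1. The rest of these calls were higher. Without a filter and without the variance trend limma called 0 genes of either kind, while 4092 and 3449 of all genes had an unadjusted p under 0.05. Of the acetyltransferase genes 0 were called, except for 1, Kat6b, with the filter of 5, with voom, with voom and median scaling and at an adjusted p under 0.1. With 1 library left out, limma called 0 (without NSN replicate 1, 2278 at an unadjusted p under 0.05) to 1680 (without NSN replicate 2) of all genes, 153 without SN replicate 1 and 12 without SN replicate 2, and 0 to 15 of the genes working with the acetyltransferases and 0 to 1 acetyltransferase genes.

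The labels do not say whether libraries of the same replicate number were paired. The replicate differences of NSN and SN correlated at -0.07 across 11672 genes. With 2 libraries per configuration this cannot decide whether they were paired. With the replicate number as a block 422 genes were called, 3 of them among the genes working with the acetyltransferases and 0 acetyltransferase genes. With the block and gene length correction limma called 0 genes (2805 at an unadjusted p under 0.05), and 0 of either gene group.

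Some small log2 fold changes changed sign, and none of these passed the test on either side. Kat2a became -0.13 after median scaling, -0.14 after quantile normalization and with voom and median scaling, -0.073 without the 100 most abundant genes in the totals and -0.045 when corrected for gene length, whether blocked or not. Kat7 became -0.12, -0.13, -0.12, -0.057 and -0.046 in the same order. Hat1 became -0.058 after median scaling and -0.059 with voom and median scaling, and Crebbp -0.0083 when corrected for gene length, whether blocked or not. Rbbp7 became -0.064 and Pdhb -0.041 after median scaling, with or without voom, and Sgf29 0.014 after quantile normalization. With 1 library left out, Kat2a ranged from -0.11 to 0.12, Hat1 from -0.0040 to 0.19, Sgf29 from -0.11 to 0.088 and H1f8 from -0.16 to 0.023. In the alternatives that used all 4 libraries, 120 values of the acetyltransferase genes stayed on the same side of 0 and of the threshold, 16 changed sign and 4, all of Kat6b, came to pass. Kat5 had the fewest recovered read pairs, 33 to 64 or a whole multiple, and the widest interval.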
